A study of Mus musculus with 52 samples.

Results

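4T1 tumours grown in old mice were compared with 4T1 tumours grown in young mice, all of them treated with anti-CTLA4. The rule took every library labelled as old and anti-CTLA4 (8) and every library labelled as young and anti-CTLA4 (12), so that 20 of the 52 libraries of the series entered the comparison. 4T1 is a mammary carcinoma line of Balb/C mice that forms tumours when it is placed in the fat pad of that strain. The other 32 libraries were tumours of old and young mice given an isotype antibody or anti-PD-L1, and they entered the same model.

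Old mice were more than 12 months old, and young mice were 8 to 10 weeks old by their age label (up to 12 weeks in the protocol). Mice of both ages were Balb/C and had received 100000 4T1 cells in the left mammary fat pad of the 4th pair. Both groups then had 3 intraperitoneal doses of 200 µg of clone 9D9 against CTLA4, on days 7, 10 and 13. RNA came from whole tumours of about 150 mm3 at most, so tumour cells, immune cells, stroma and vessels were measured together, and fewer cells of a type cannot be told apart from less RNA per cell. The replicates are labelled as biological, but the labels do not tie a library to an animal, and the p-values therefore rest on how these libraries spread.

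CTLA4 is an inhibitory receptor of T cells that competes with the activating receptor CD28 for the ligands CD80 and CD86. An antibody to CTLA4 can free CD28 for these ligands, and it can also lead to the removal of cells that carry CTLA4, among them regulatory T cells, through Fc receptors of macrophages and natural killer cells. Activated T cells and natural killer cells release interferon gamma, which acts through IRF1 and other factors to raise antigen presentation and chemokines that draw further T cells, and they kill target cells with perforin and granzymes.

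Total estimated counts ran from 19619758 to 46165114 in libraries of old mice and from 14090467 to 53778370 in libraries of young mice. Sequencing batches were unequal. Batch 1 held 7 old and 4 young libraries, batch 2 held 3 young libraries and no old one, and batch 3 held 1 old and 5 young libraries. Carcinoma markers were present in every library. Epcam lay at 85.0, 125 and 145 TPM (lowest, median and highest) in old mice and at 22.1, 58.4 and 84.1 TPM in young mice, and Krt18 at 785, 1084 and 1158 TPM in old mice and at 141, 518 and 944 TPM in young mice. Young replicate 8, of batch 1, stood apart with a TMM scaling factor of 0.735, the lowest of the 20, and with the lowest length trend, which is the slope, over genes, of log2 CPM (counts scaled to library size with TMM factors) in 1 library, relative to the mean of all libraries, on log2 gene length. That slope was -0.531 in young replicate 8. Its median was 0.115 in old libraries and -0.00102 in young libraries. Young replicates 7 and 8 also stood apart with the highest T cell levels of the 20 libraries (mean log2 CPM of the list 6.44 and 6.06), the highest B cell levels (6.94 and 5.41) and the lowest epithelial levels (3.58 and 3.93).

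Genes of neutrophils, mast cells, interferon gamma responses and antigen presentation fell in tumours of old mice, and epithelial carcinoma genes were among those that rose. Of 16 B cell genes 1 was lower, and of 8 plasma cell genes 0 were. All 16 B cell genes had a log2 fold change below 0 (median -1.14). The list's median level went the other way. The mean log2 CPM of the B cell list spread from -0.0531 to 4.96 in old mice (median 2.74) and from 0.252 to 6.94 in young mice (median 1.27). Of the 8 old libraries 6 lay above the young median. In batch 1 the medians were 2.76 and 2.87. Few calls at such a spread do not show that B cell levels were unchanged. Of 17899 genes tested, 5485 (30.6%) passed edgeR's quasi-likelihood test at a Benjamini-Hochberg adjusted p under 0.05, 2644 of them higher in old mice (14.8% of those tested) and 2841 lower (15.9%). Large differences lay mostly on the lower side. Among passing genes, 1374 were at least 2-fold lower and 486 at least 2-fold higher, and 419 were at least 4-fold lower and 75 at least 4-fold higher. In 331 genes (1.85%) the old and young libraries did not overlap in CPM, 163 with all old libraries below all young (0.911%) and 168 with all old libraries above (0.939%).

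Within batch 1 alone (7 old and 4 young libraries), 3596 of 16363 genes passed (22.0%), 1762 higher (10.8%) and 1834 lower (11.2%). Of the 5485 genes, 5185 were tested there, 3316 passed with the same sign, and 0 had the opposite sign. Without young replicate 8 the full comparison gave 2141 higher and 1744 lower genes, so that the lower count moved by more than 1.5 times. Without young replicates 7 and 8 together, an alternative chosen after seeing the data, it gave 2091 higher and 1864 lower genes. Genes that passed also differed in length. Relative to the median gene tested, those higher in old mice had a median effective length of 1.46 and those lower 0.653. With the length trend as a covariate 5902 genes passed, of which 3535 were among the 5485 with the same sign, and 32 of the 5485 took the opposite sign.

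**Figure D1:**
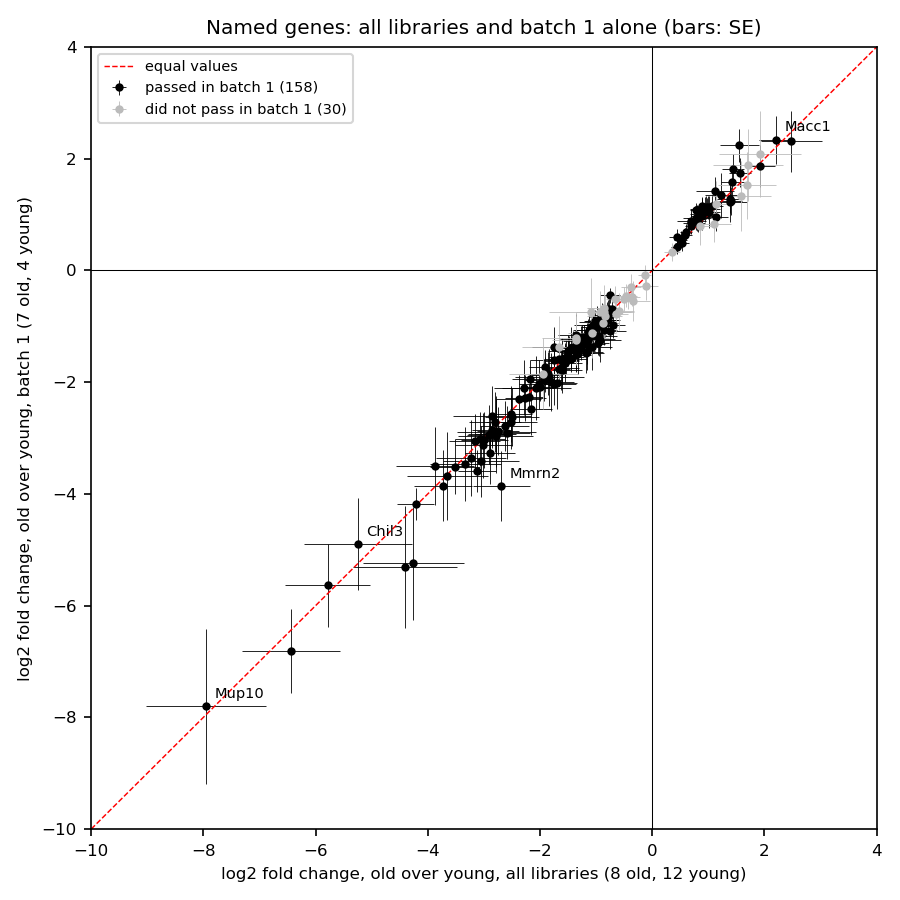
Log2 fold change (old over young) of the 188 named genes in the model of all libraries (x axis) and in batch 1 alone (y axis), with bars for the SE of each. Points lie along the dashed line of equal values, and 158 of the 188 passed in batch 1 as well.

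The lower genes of smallest p included a cytoskeletal regulator, a membrane trafficking factor and a brake on cytokine signalling. Mid1, which encodes a microtubule-associated ubiquitin ligase and lies at X:169685199-170005736 (GRCm38, plus strand), had 5.21, 6.14 and 9.58 CPM (lowest, median and highest) in old mice, against 13.2, 28.4 and 49.8 CPM in young mice. All old libraries lay below all young ones (log2 fold change -2.19 ± 0.24 SE, edgeR adjusted p = 2.57e-08, and -2.26 in batch 1). Cyth1 encodes cytohesin 1, an exchange factor for ARF GTPases, and lies on the minus strand at 11:118132019-118248592. It had 24.1, 41.2 and 49.3 CPM in old mice, against 160, 205 and 854 CPM in young mice. Here too the groups did not overlap (-3.12 ± 0.35, edgeR adjusted p = 2.57e-08, and -3.59 in batch 1). Among its relatives, Cyth3 rose by a log2 fold change of 0.51 ± 0.12 and Iqsec1, another ARF exchange factor, fell (-1.06 ± 0.33). In the list of 9 cytohesin and ARF genes 1 was higher and 3 were lower (1 and 2 in batch 1), beside 14.8% higher and 15.9% lower over all genes.

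Several further genes fell with no overlap. Ninj1, whose product acts in the rupture of dying cells' membranes, had 43.6, 72.6 and 87.9 CPM in old mice, against 94.3, 166 and 369 CPM in young mice (-1.66 ± 0.19, edgeR adjusted p = 1.04e-07). Pla2g5, a secreted phospholipase, had 0.209, 0.411 and 1.07 CPM in old mice, against 1.37, 4.14 and 10.3 CPM in young mice (-3.52 ± 0.44). Cyp11a1, the enzyme that starts steroid synthesis from cholesterol, had 0.783, 1.01 and 1.15 CPM in old mice, against 2.03, 6.62 and 11.3 CPM in young mice (-2.90 ± 0.38). Pde1a, a cyclic nucleotide phosphodiesterase (-2.85 ± 0.36), Glipr2 (-1.49 ± 0.19), Sh3bgrl3 (-1.03 ± 0.12), Gpsm3 (-0.91 ± 0.11), Rexo4 (-0.90 ± 0.12) and Prr13 (-0.80 ± 0.10) also fell with no overlap. The chemokine Ccl1 (-2.79 ± 0.37) and Cdk2ap2 (-0.91 ± 0.12) fell with groups that overlapped. All of these passed in batch 1.

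A transcript that the rule for named genes leaves out had the smallest p of any gene. G530011O06Rik, named here after its values were seen, lies at X:169975043-169978917 on the minus strand, inside the interval of Mid1 on the other strand. It had 0.679, 0.981 and 1.93 CPM in old mice, against 13.9, 22.3 and 42.1 CPM in young mice (-4.22 ± 0.33, edgeR adjusted p = 1.44e-12). The use of strand in the authors' quantification is not stated in the labels or headers, and the split of reads between the overlapping pair is uncertain. Genes of the major urinary proteins, lipocalins that carry small volatile molecules, had wide differences. Mup9 had 0, 0.59 and 2.94 CPM in old mice, against 4.89, 51.7 and 83.2 CPM in young mice (-5.78 ± 0.76, edgeR adjusted p = 7.28e-07). Mup10, named after its values were seen, had a median of 0 CPM and a highest value of 6.91 CPM in old mice, against 25.3, 208 and 307 CPM in young mice. Its fitted fold change (-7.95 ± 1.08) depends on how values of 0 are treated. Of 10 Mup genes tested, 0 were higher and 7 lower (0 and 5 in batch 1), beside 14.8% higher and 15.9% lower over all genes. Mup2 and Mup18, lower in the full comparison, were not tested in batch 1. The Mup genes are near-identical copies, so the reads of single members are uncertain.

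**Figure D2:**
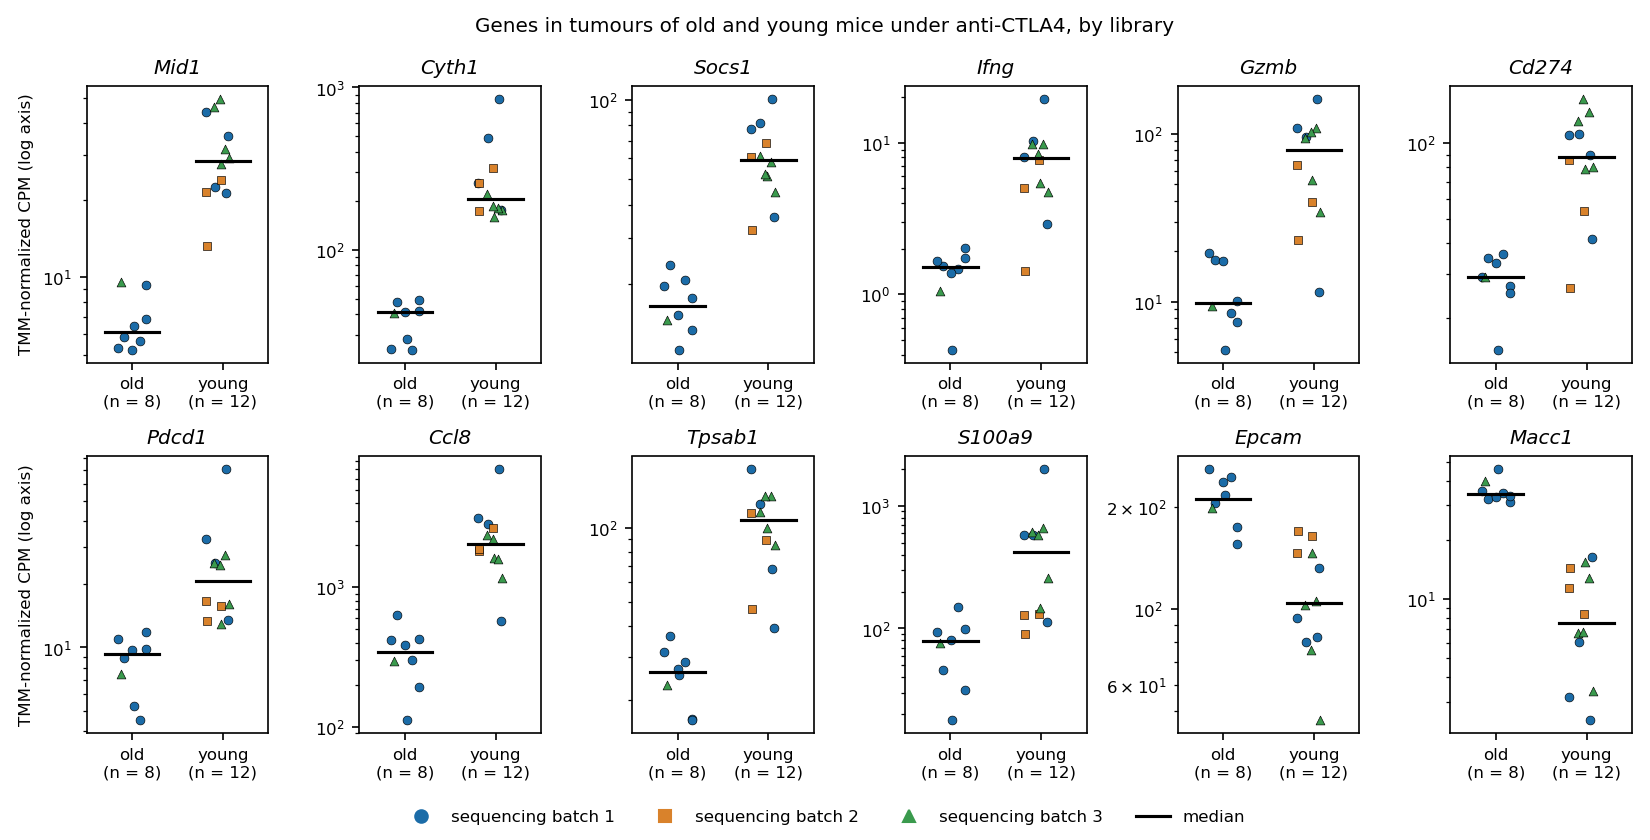
TMM-normalized CPM (log axis) of 12 genes in each library, old mice left of young mice, with symbols for the sequencing batch and a bar at the median. The 8 old libraries lie below the 12 young ones without overlap in Mid1, Cyth1, Socs1, Pdcd1 and Tpsab1 and above them in Macc1, and they overlap in Ifng, Gzmb, Cd274, Ccl8, S100a9 and Epcam.

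Genes that respond to interferon gamma fell together. Of 22 list members tested, 0 were higher and 20 lower, with a median log2 fold change of -1.07, beside 14.8% higher and 15.9% lower and a median of -0.06 over all genes tested. In batch 1 alone 0 were higher and 16 lower. The mean log2 CPM of the list was 4.71, 5.77 and 5.96 in old mice, against 5.83, 6.94 and 7.23 in young mice, with all 8 old libraries below the young median. Both receptor genes are on the list. Ifngr2 fell (-0.36) but lost its call in 17 of 33 alternatives, among them batch 1 (-0.47) and leaving out young replicate 8 (-0.36). Ifngr1 did not pass (-0.13).

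Ifng, the cytokine gene itself (10:118441046-118445892, plus strand), had 0.429, 1.5 and 2.02 CPM in old mice, against 1.43, 7.85 and 19.5 CPM in young mice. The groups overlapped at their edge, and the gene fell (-2.63 ± 0.44, edgeR adjusted p = 2.46e-05, and -2.78 in batch 1). Socs1, an inhibitor of cytokine receptor kinases that interferon gamma induces, had 11.3, 16.5 and 23.7 CPM in old mice, against 32.1, 59.4 and 101 CPM in young mice. It fell with no overlap (-2.0 ± 0.25, edgeR adjusted p = 4.26e-07, and -2.08 in batch 1). Irf1, a transcription factor that interferon gamma induces, had 107, 172 and 198 CPM in old mice, against 221, 297 and 370 CPM in young mice, and fell with no overlap (-0.79 ± 0.16, edgeR adjusted p = 0.000223). The GTPases Igtp (-1.53 ± 0.31) and Gbp4 (-1.51 ± 0.34), the adhesion molecule Icam1 (-1.06 ± 0.21), and the T cell chemokines Cxcl10 (-1.16 ± 0.32) and Cxcl9 (-1.08 ± 0.36) also fell. Cxcl9 lost its call without young replicate 8 (-0.82) and with the length trend as a covariate (-0.74).

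The letters of 2 motifs of interferon signalling were looked up, on both strands, in RefSeq promoter windows of this list (GRCm38.p6, 250 bases before and 50 bases after the start). These were TTCNNNGAA, the core of the gamma-activated site, and GAAA followed by any 2 bases and a further GAAA, the core of the interferon-stimulated response element that IRF proteins bind. Windows were found for 15 of the 22 members. TTCNNNGAA was in 6 of the 15 (40%), beside 1022 of 12087 tested genes with a window (8.46%), and the GAAA pair was in 9 of the 15 (60%), beside 480 of 12087 (3.97%). A match is a description of the letters and not of binding. The windows of 4 members that fell and hold a match are printed 5′ to 3′ with the motif letters in capitals. Irf1 (11:53769764-53770063, plus strand) and Icam1 (9:21015690-21015989, plus strand) hold the gamma-activated site motif, Igtp (11:58199306-58199605, plus strand) holds both motifs next to each other, and Socs1 (16:10785487-10785786, minus strand) holds 2 overlapping copies of the IRF motif.
Irf1: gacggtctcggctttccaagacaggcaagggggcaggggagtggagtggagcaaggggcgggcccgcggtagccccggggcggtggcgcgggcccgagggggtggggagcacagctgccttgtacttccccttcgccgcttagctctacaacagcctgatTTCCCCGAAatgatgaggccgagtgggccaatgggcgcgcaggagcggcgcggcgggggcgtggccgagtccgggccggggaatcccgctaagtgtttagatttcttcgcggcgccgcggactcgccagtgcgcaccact
Icam1: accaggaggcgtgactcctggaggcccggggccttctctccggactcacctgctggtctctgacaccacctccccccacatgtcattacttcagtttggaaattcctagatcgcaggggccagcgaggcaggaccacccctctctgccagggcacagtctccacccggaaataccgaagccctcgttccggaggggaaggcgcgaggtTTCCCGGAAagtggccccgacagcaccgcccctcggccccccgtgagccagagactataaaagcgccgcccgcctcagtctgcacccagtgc
Igtp: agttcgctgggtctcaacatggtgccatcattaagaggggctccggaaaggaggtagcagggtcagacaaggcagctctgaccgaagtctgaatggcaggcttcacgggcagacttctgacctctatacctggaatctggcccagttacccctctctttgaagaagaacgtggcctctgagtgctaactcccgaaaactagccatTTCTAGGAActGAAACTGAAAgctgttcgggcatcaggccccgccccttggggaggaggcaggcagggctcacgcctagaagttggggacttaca
Socs1: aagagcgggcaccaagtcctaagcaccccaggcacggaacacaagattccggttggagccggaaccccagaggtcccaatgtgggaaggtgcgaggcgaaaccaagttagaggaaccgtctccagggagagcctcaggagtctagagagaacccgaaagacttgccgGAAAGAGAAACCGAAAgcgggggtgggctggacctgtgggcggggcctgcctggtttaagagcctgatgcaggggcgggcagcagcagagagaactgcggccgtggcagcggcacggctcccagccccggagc

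Antigen presentation genes were lower as well, at counts that stand beside 14.8% higher and 15.9% lower over all genes (10.8% and 11.2% in batch 1). Of 16 class I presentation genes, 0 were higher and 13 lower (median -0.89; 0 and 12 in batch 1), and the mean log2 CPM of the list did not overlap, at 7.63, 8.17 and 8.35 in old mice, against 8.45, 8.94 and 9.25 in young mice. H2-K1, a classical class I heavy chain, had 584, 827 and 992 CPM in old mice, against 991, 1458 and 1848 CPM in young mice (-0.87 ± 0.17, edgeR adjusted p = 0.000174). Psmb9, an immunoproteasome subunit (-1.55 ± 0.30, no overlap), Tap1, a subunit of the peptide transporter (-1.09 ± 0.27), H2-T23 (-1.21 ± 0.20) and B2m, the light chain (-0.66 ± 0.15), fell too. B2m did not pass in batch 1 (-0.51). Of 13 class II presentation genes 0 were higher and 9 lower (median -1.30; 0 and 8 in batch 1), led by H2-DMa, a peptide exchange factor, at 57.8, 119 and 159 CPM in old mice and 162, 241 and 356 CPM in young mice with no overlap (-1.14 ± 0.20). Ifi30 (-0.78 ± 0.17) and H2-DMb2 (-1.41 ± 0.30) fell with it. Among 20 type I interferon-stimulated genes 0 were higher and 9 lower (0 and 5 in batch 1), with Oasl1 (-1.06 ± 0.23), Rsad2 (-1.80 ± 0.40) and Cmpk2 (-0.97 ± 0.28) of smallest p.

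Effector genes of cytotoxic lymphocytes fell, beside 14.8% higher and 15.9% lower over all genes (10.8% and 11.2% in batch 1). Of 12 cytotoxic effector genes 0 were higher and 8 lower (median -1.49; 0 and 7 in batch 1). Gzmb, which encodes granzyme B, had 5.15, 9.75 and 19.4 CPM in old mice, against 11.4, 79.7 and 162 CPM in young mice. Only the lowest young library reached the old range (-2.90 ± 0.39, edgeR adjusted p = 1.38e-06, and -2.94 in batch 1). Gzma had 3.00, 8.15 and 16.3 CPM in old mice, against 11.0, 49.9 and 115 CPM in young mice (-2.80 ± 0.47). Prf1, which encodes perforin, had 3.19, 6.68 and 10.5 CPM in old mice, against 3.86, 20.4 and 33.4 CPM in young mice (-1.76 ± 0.38), and Nkg7, a granule protein, fell too (-2.49 ± 0.48). Of 11 natural killer cell genes 0 were higher and 8 lower (0 and 7 in batch 1, and 5 lower without young replicates 7 and 8), among them the receptors Klra7 (-2.26 ± 0.36, no overlap) and Klrc1 (-2.51 ± 0.45) and the chemokine Xcl1 (-2.16 ± 0.37).

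T cell genes themselves were lower, but most calls were lost without young replicate 8 or with the length trend as a covariate. Young replicate 8 had both the lowest length trend (-0.531) and 1 of the 2 highest T cell levels (6.06) of the 20 libraries. Gene length and T cell content therefore cannot be told apart in that library. Young replicate 7 had the highest T cell level (6.44) and a length trend of 0.0827. Of 22 T cell and CD3 genes 0 were higher and 15 lower (median -1.75), and 0 and 11 in batch 1. The shares over all genes were 14.8% and 15.9% (10.8% and 11.2% in batch 1). Without young replicate 8 only 3 members were lower, without young replicates 7 and 8 only 2, and with the length trend as a covariate 0 were. Cd3d, a chain of the T cell receptor complex, had 6.37, 13.1 and 20.5 CPM in old mice, against 17.2, 41.4 and 414 CPM in young mice (-3.05 ± 0.68, edgeR adjusted p = 0.000648). It did not pass with the length covariate (-1.13). Trbc1 (-2.79 ± 0.67) and Trbc2 (-2.78 ± 0.70), the receptor beta constant regions, lost their calls without young replicate 8 (-1.86 and -1.93) and with the covariate (-1.06 and -1.05). Cd8a had 3.76, 14.1 and 31.4 CPM in old mice, against 10.2, 40.4 and 110 CPM in young mice (-1.83 ± 0.62, edgeR adjusted p = 0.0204), and it also lost its call without young replicate 8 (-1.45) and with the covariate (-0.95). Cd4 was at -1.37 ± 0.59 and did not pass (edgeR adjusted p = 0.0735). B cell markers, by which lymph node tissue in a sample can be seen, are given beside these genes. Of 16 B cell genes 0 were higher and 1 lower, Cd37 (-1.66 ± 0.66, edgeR adjusted p = 0.0499), a share below the 15.9% of all genes. Cd37 lost its call in 23 of 33 alternatives, and in batch 1 (-1.38) 0 B cell genes passed. The list's mean log2 CPM ran over -0.0531, 2.74 and 4.96 in old mice and 0.252, 1.27 and 6.94 in young mice. So 6 of the 8 old libraries lay above the young median. Of 11 lymph node stroma and homing genes 0 were higher and 3 lower (0 and 1 in batch 1), and 0 of them were lower without young replicate 8. The median level of that list was 2.58 in old mice and 1.81 in young mice, with 6 of 8 old libraries above the young median. Of 8 plasma cell genes 0 passed in either direction. With the B cell level as a covariate 5939 genes passed, and 19 of the 22 T cell and CD3 genes were lower.

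The target of the antibody did not pass. Ctla4 had 2.87, 6.99 and 10.9 CPM in old mice, against 3.53, 9.80 and 29.6 CPM in young mice (-1.07 ± 0.43, edgeR adjusted p = 0.0544, and -1.12 in batch 1). It passed in 9 of 33 alternatives, among them DESeq2 (-1.11), and its log2 fold change ran from -1.26 to -0.45 over the 33. Foxp3, the transcription factor of regulatory T cells, had 1.43, 3.94 and 10.3 CPM in old mice, against 3.00, 6.51 and 20.2 CPM in young mice, and did not pass (-0.87 ± 0.49, edgeR adjusted p = 0.172). Cd28 was at -1.09 ± 0.76 (edgeR adjusted p = 0.281). Of 6 genes of CTLA4, CD28, ICOS and their ligands, 0 were higher and 3 lower (0 and 1 in batch 1). The shares over all genes were 14.8% higher and 15.9% lower (10.8% and 11.2% in batch 1). Cd80 fell (2.36, 3.88 and 5.16 CPM in old mice, against 4.23, 6.93 and 10.1 CPM in young mice; -0.89 ± 0.21, edgeR adjusted p = 0.00124). Cd86 (-0.87 ± 0.27) and Icos (-1.35 ± 0.44) also fell, but neither passed in batch 1 (-0.95 and -1.25) or without young replicate 8 (-0.45 and -1.15). Of 12 regulatory T cell genes 0 were higher and 5 lower (0 and 5 in batch 1). Of the 5 lower in the full comparison 3 were receptors of the TNF family, Tnfrsf9 (4-1BB, -1.60 ± 0.30), Tnfrsf4 (OX40, -1.63 ± 0.33) and Tnfrsf18 (GITR, -1.60 ± 0.34).

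Other checkpoints and their ligands fell, beside 14.8% higher and 15.9% lower over all genes (10.8% and 11.2% in batch 1). Of 18 tested, 0 were higher and 11 lower (0 and 9 in batch 1, and 7 lower without young replicate 8). Cd274, which encodes PD-L1, had 15, 29.3 and 36.0 CPM in old mice, against 26.5, 87.8 and 151 CPM in young mice. Only the lowest young library reached the old range (-1.66 ± 0.28, edgeR adjusted p = 2.29e-05, and -1.58 in batch 1). Pdcd1lg2, which encodes PD-L2, had 1.80, 4.61 and 12.6 CPM in old mice, against 10.8, 42.8 and 69.1 CPM in young mice (-2.99 ± 0.42). Pdcd1, which encodes their receptor PD-1, had 4.49, 9.28 and 11.8 CPM in old mice, against 13.0, 20.7 and 70.8 CPM in young mice, and fell with no overlap (-1.74 ± 0.38, edgeR adjusted p = 0.000524, and -2.03 in batch 1). Lag3, an inhibitory receptor that binds class II molecules, fell as well (-1.94 ± 0.34).

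Fc receptors, through which antibody-bound cells are cleared, passed in part. Of 6 tested, 0 were higher and 3 lower (0 and 2 in batch 1), beside 14.8% higher and 15.9% lower over all genes (10.8% and 11.2% in batch 1). Fcer1g, the signalling chain shared by activating receptors (-0.94 ± 0.20), and Fcgrt, the neonatal receptor that recycles antibody (-0.86 ± 0.25), fell. Fcgr3, an activating receptor, had 148, 330 and 475 CPM in old mice, against 257, 492 and 853 CPM in young mice (-0.65 ± 0.23, edgeR adjusted p = 0.0248). It lost its call in 12 of 33 alternatives, among them batch 1 (-0.78) and leaving out young replicate 8 (-0.42). Fcgr4 (-0.59 ± 0.26, edgeR adjusted p = 0.0744), the inhibitory Fcgr2b (-0.38 ± 0.17, edgeR adjusted p = 0.0904) and Fcgr1 (-0.11 ± 0.21, edgeR adjusted p = 0.717) did not pass.

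Granulocyte genes fell, beside 14.8% higher and 15.9% lower over all genes (10.8% and 11.2% in batch 1). The neutrophil list had the lowest median of the 46 lists. Of 22 neutrophil genes 0 were higher and 20 lower (median -2.56; 0 and 19 in batch 1). S100a9, a calcium-binding protein that neutrophils hold in bulk, had 17.8, 78.4 and 151 CPM in old mice, against 89.8, 420 and 1992 CPM in young mice (-3.33 ± 0.63, edgeR adjusted p = 0.000114, and -3.46 in batch 1). Its partner S100a8 (-3.23 ± 0.63), the granule peptide Camp (-4.40 ± 0.93), the surface marker Ly6g (-3.65 ± 0.72), the growth factor receptor Csf3r (-1.45 ± 0.28) and the neutrophil chemokines Cxcl3 (-3.88 ± 0.69) and Cxcl2 (-2.85 ± 0.70) fell. Of 12 mast cell and eosinophil genes 0 were higher and 11 lower (median -1.68; 0 and 10 in batch 1), and 10 or 11 were lower in each alternative run. Tpsab1, a tryptase of mast cell granules, had 16.6, 26.1 and 36.5 CPM in old mice, against 39.2, 107 and 173 CPM in young mice, and fell with no overlap (-2.18 ± 0.31, edgeR adjusted p = 3.19e-06, and -1.94 in batch 1). Tpsb2 (-1.91 ± 0.29), the IgE receptor chain Fcer1a (-2.02 ± 0.35) and the eosinophil granule protein Prg2 (-4.26 ± 0.89) fell, whereas Kit, the mast cell growth factor receptor, was at -0.35 ± 0.31 and did not pass. Mcpt1 and Mcpt2, mast cell proteases named after their values were seen, had medians of 12.5 and 34.8 CPM in old mice, against 177 and 167 CPM in young mice (-3.72 ± 0.52 and -2.52 ± 0.37). They are close paralogs, so their reads are uncertain.

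Macrophage genes fell in part. Of 20 tested 1 was higher, 11 were lower and 8 did not pass (median -0.60). In batch 1 the counts were 0 higher and 7 lower, and without young replicate 8 they were 1 and 6. The lysosomal protein Cd68 had 64.6, 92.4 and 110 CPM in old mice, against 114, 194 and 287 CPM in young mice, and fell with no overlap (-1.26 ± 0.19, edgeR adjusted p = 4.04e-06). The lysosomal protease Ctsd (-0.92 ± 0.16), Gpnmb (-1.75 ± 0.43) and the arginine-degrading enzyme Arg1 (-1.35 ± 0.33) fell. The chemokine receptor Cx3cr1 was the member that rose, with 70.0, 103 and 188 CPM in old mice, against 6.02, 36.0 and 100 CPM in young mice (1.69 ± 0.52, edgeR adjusted p = 0.0112). It did not pass in batch 1 (1.52). Acod1, the itaconate-producing enzyme of activated macrophages, named after its values were seen, fell (-3.16 ± 0.46). Of 15 dendritic cell genes 1 was higher and 4 were lower (1 and 3 in batch 1), beside 14.8% higher and 15.9% lower over all genes. The lower ones included Batf3 (-1.36 ± 0.26), Itgax (-1.14 ± 0.26) and Bst2 (-1.07 ± 0.26).

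Chemokines and inflammatory mediators were lower, beside 14.8% higher and 15.9% lower over all genes (10.8% and 11.2% in batch 1). Of 10 monocyte recruitment genes 0 were higher and 5 lower (0 and 6 in batch 1). Ccl8, a ligand of several CC receptors, had 111, 344 and 632 CPM in old mice, against 573, 2043 and 7022 CPM in young mice (-2.90 ± 0.45, edgeR adjusted p = 8.64e-06, and -3.28 in batch 1). Ccl2 (-1.86 ± 0.30) and Chil3, a secreted lectin of myeloid cells (-5.25 ± 0.96), fell too. Of 13 genes of the T cell chemokine axis 0 were higher and 10 lower (0 and 9 in batch 1), led by Ccl4 at 1.67, 5.21 and 8.25 CPM in old mice and 8.87, 21.1 and 66.3 CPM in young mice with no overlap (-2.75 ± 0.37, edgeR adjusted p = 1.35e-06). Ccl5 (-3.01 ± 0.51), Ccl17 (-2.59 ± 0.41) and Ccl3 (-2.38 ± 0.40) fell with it. Of 17 inflammatory cytokine genes 1 was higher and 9 lower (1 and 6 in batch 1). Tnf had 1.94, 2.94 and 4.54 CPM in old mice, against 3.72, 8.82 and 17.1 CPM in young mice (-1.90 ± 0.26, edgeR adjusted p = 1.69e-06), and Osm fell (-1.37 ± 0.23). Il23a, a subunit of interleukin 23, went the other way, at 13.6, 18.9 and 28.5 CPM in old mice, against 2.17, 5.83 and 22.8 CPM in young mice (1.39 ± 0.29, edgeR adjusted p = 0.000375). Of 16 complement genes 1 was higher and 9 were lower (0 and 7 in batch 1). The lower ones included properdin (Cfp, -1.49 ± 0.20, no overlap), C3 (-2.29 ± 0.54) and C4b (-1.44 ± 0.35).

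**Figure D3:**
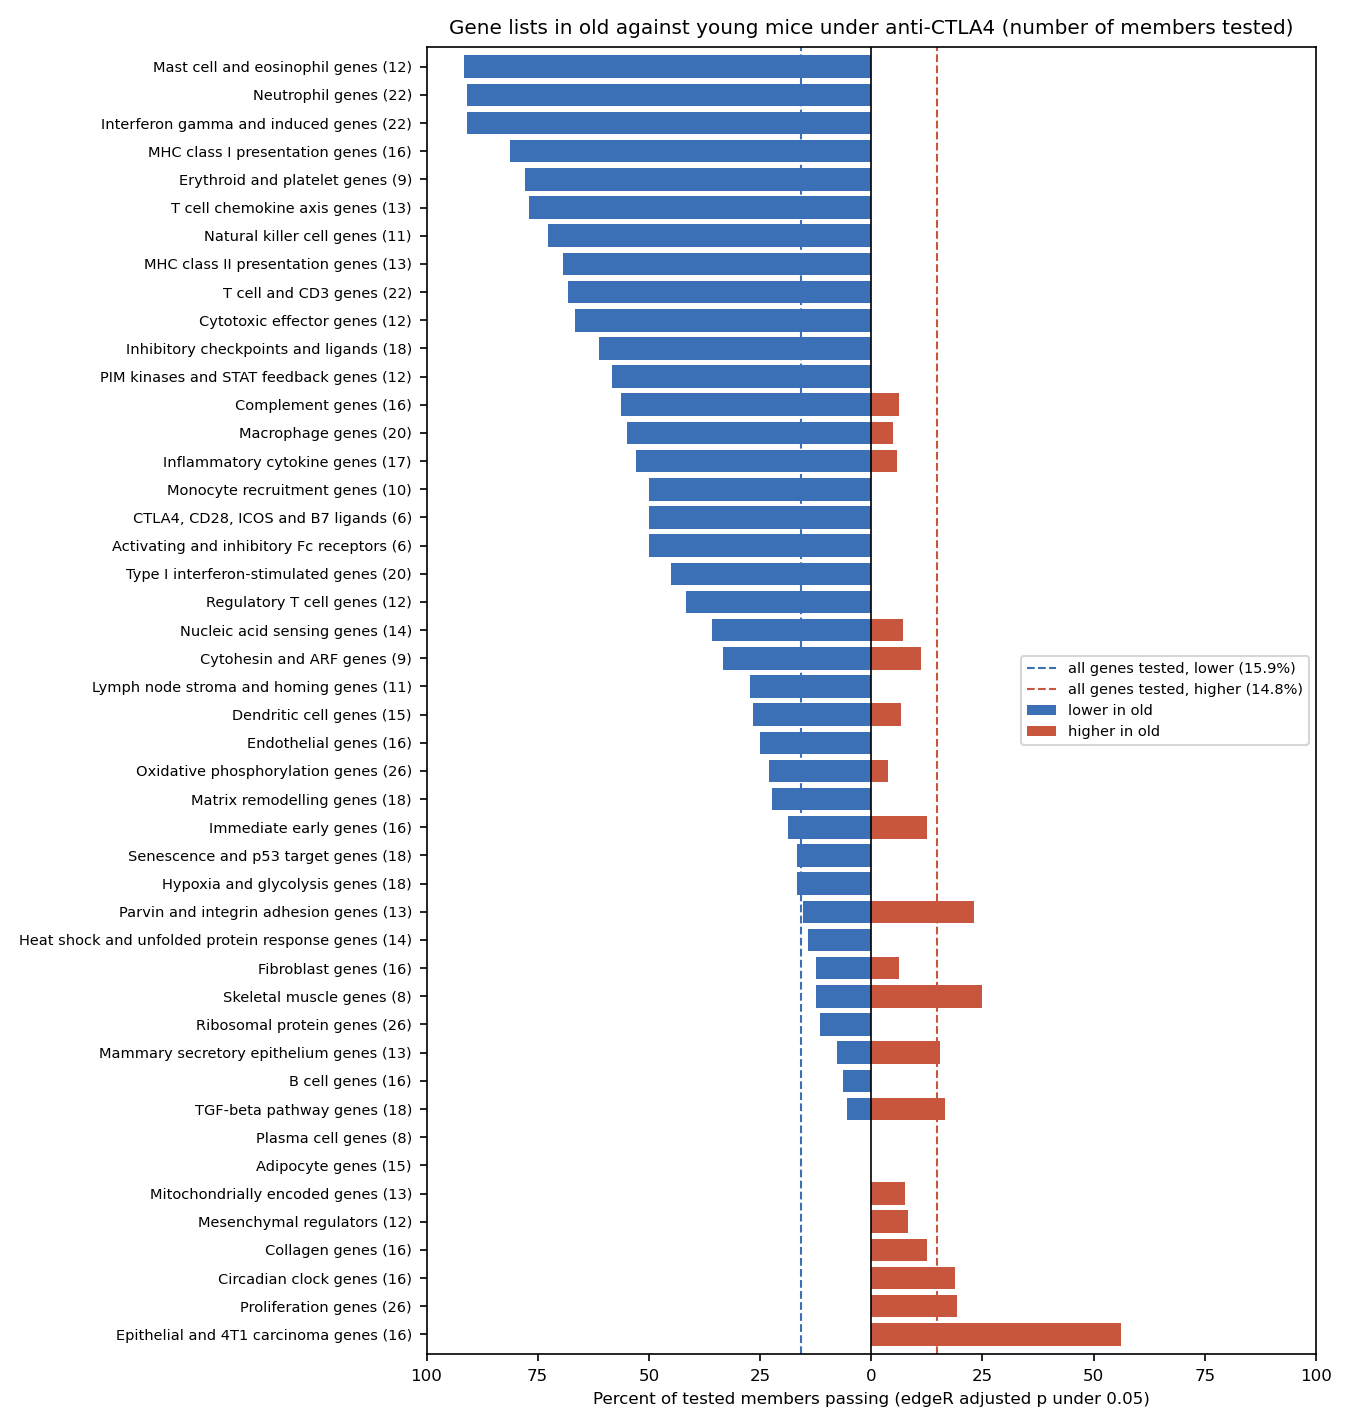
Percent of tested members that passed (edgeR adjusted p under 0.05), lower in old mice to the left and higher to the right, for 46 gene lists with the number tested in brackets. Dashed lines give the share of all genes tested, 15.9% lower and 14.8% higher, and mast cell, neutrophil and interferon gamma lists reach furthest to the left and the epithelial list furthest to the right.

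Signalling genes downstream of cytokines fell with them. Of 12 genes of PIM kinases and STAT feedback 0 were higher and 7 lower (0 and 6 in batch 1), among them Cish, a feedback inhibitor (11.2, 17.5 and 26.6 CPM in old mice, against 34.7, 48.3 and 77.0 CPM in young mice, no overlap; -1.56 ± 0.26). Pim1, a survival kinase, fell as well (-1.28 ± 0.20). Of 14 nucleic acid sensing genes 1 was higher, Cgas (0.53 ± 0.12), and 5 were lower, including Irf3 (-0.73 ± 0.14, no overlap) and Zbp1 (-1.33 ± 0.28). In batch 1 the counts were 1 higher and 4 lower, and over all genes 14.8% were higher and 15.9% lower. Blood genes were lower too. Of 9 erythroid and platelet genes 0 were higher and 7 lower (0 and 6 in batch 1), with the platelet chemokine Pf4 at 8.29, 21.6 and 37.7 CPM in old mice and 36.1, 126 and 267 CPM in young mice (-3.07 ± 0.44), and Itga2b (-1.27 ± 0.27) and Hba-a1 (-1.70 ± 0.37) also lower. Pf4 is also made by macrophages.

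**Figure D4:**
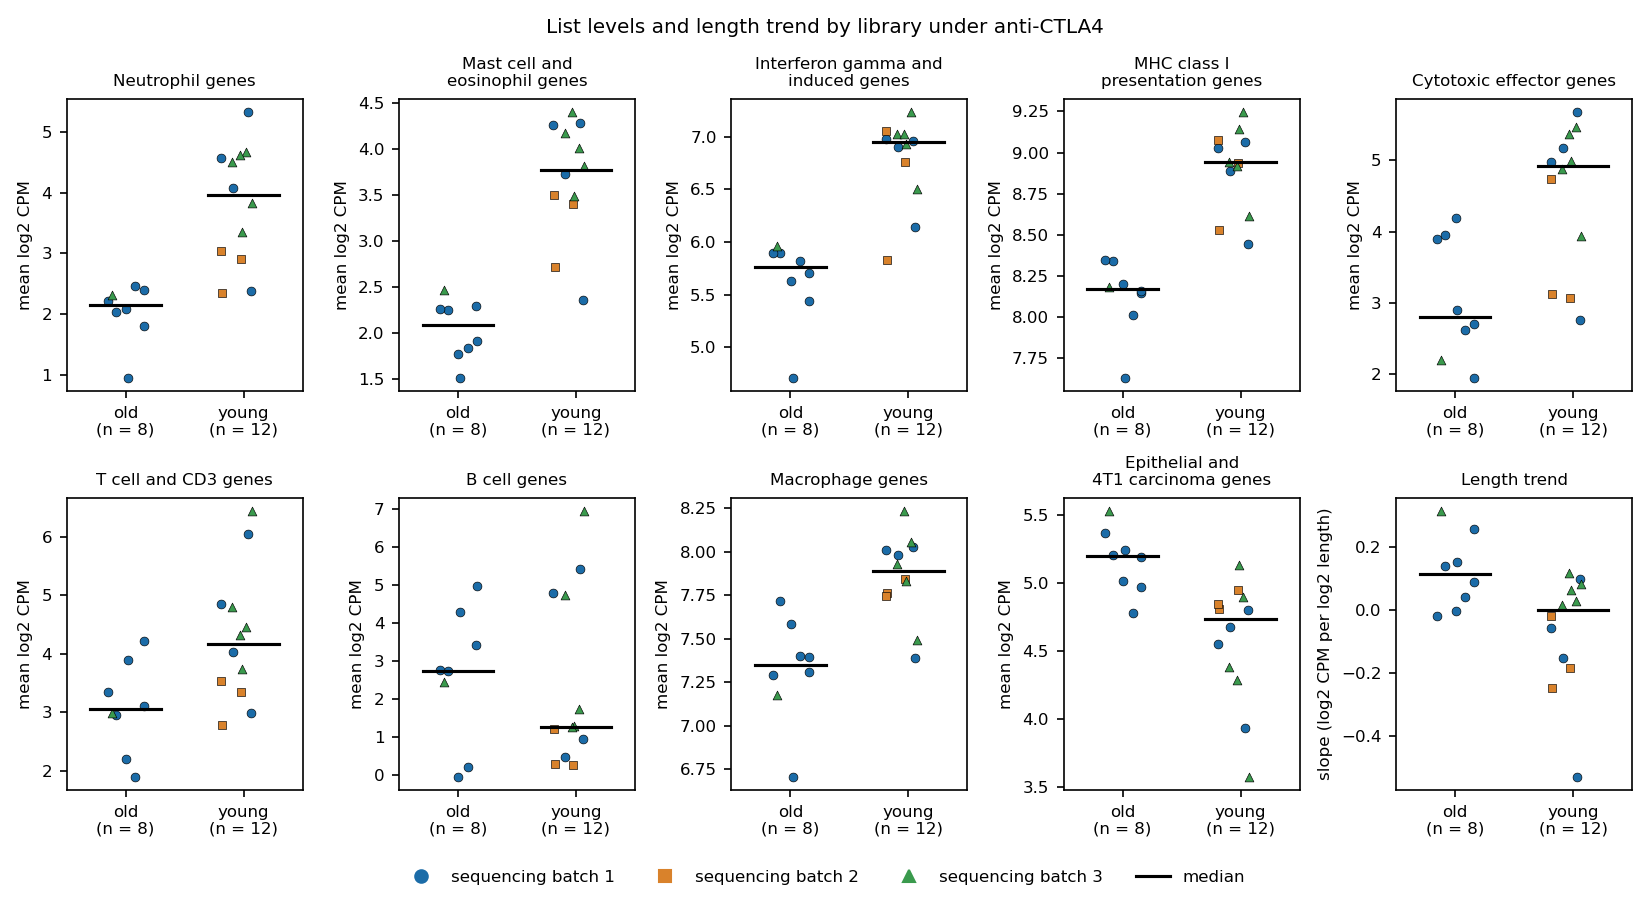
Mean log2 CPM of 9 gene lists, and the length trend, in each library, old mice left of young mice, with symbols for the sequencing batch and a bar at the median. The class I list does not overlap between the groups, the B cell list spreads from -0.0531 to 6.94 over both, and the lowest length trend (-0.531) is that of young replicate 8.

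Epithelial genes were higher in old mice. Of 16 epithelial and 4T1 carcinoma genes 9 were higher and 0 lower (median 0.80), and 5 and 0 in batch 1. The shares over all genes were 14.8% and 15.9% (10.8% and 11.2% in batch 1). Young replicates 7 and 8, the libraries of highest T and B cell levels, had the lowest levels of this list. Without both, 6 members were higher and 0 lower, and with the B cell level as a covariate 9 were higher and 0 lower. Epcam, an adhesion protein of carcinoma cells, had 155, 211 and 259 CPM in old mice, against 47.0, 104 and 170 CPM in young mice (1.07 ± 0.19, edgeR adjusted p = 5.49e-05, and 1.15 in batch 1). Krt7, a keratin of simple epithelia, had 151, 187 and 204 CPM in old mice, against 25.5, 86.0 and 131 CPM in young mice, and rose with no overlap (1.38 ± 0.22, edgeR adjusted p = 1.27e-05, and 1.27 in batch 1). Grhl2, an epithelial transcription factor (1.14 ± 0.21, no overlap), Krt18 (0.94 ± 0.26) and Krt8 (0.69 ± 0.26) rose. Krt8 lost its call in 10 of 33 alternatives, among them leaving out young replicate 8 (0.59) and the length covariate (0.56). Krt5, of basal cells, also rose (1.59 ± 0.53) but did not pass in batch 1 (1.34).

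The higher genes of smallest p were of several kinds. Macc1, a carcinoma gene linked to metastasis in human colon cancer, had 31.3, 34.3 and 46.0 CPM in old mice, against 2.41, 7.56 and 16.3 CPM in young mice. All old libraries lay above all young ones (2.21 ± 0.32, edgeR adjusted p = 2.84e-06, and 2.34 in batch 1). Tmprss11e, a membrane serine protease of epithelia, had 144, 184 and 203 CPM in old mice, against 19.5, 48.1 and 106 CPM in young mice with no overlap (1.93 ± 0.25, edgeR adjusted p = 8.03e-07). Slc12a2, a sodium, potassium and chloride cotransporter (1.42 ± 0.20), and Tbc1d8b, a protein with a Rab GTPase-activating domain (1.56 ± 0.20), rose with no overlap. Xiap, an inhibitor of caspases, had 77.0, 84.7 and 103 CPM in old mice, against 33.1, 47.2 and 79.5 CPM in young mice (0.93 ± 0.12, edgeR adjusted p = 3.38e-07), with a small overlap. RNA-handling genes were among them, namely the exosome nuclease Dis3 (0.82 ± 0.11), the helicase Dhx36 (0.89 ± 0.12) and the RNA-binding Stau2 (0.89 ± 0.13), each with no overlap. So were Noc3l (0.82 ± 0.12), Odf2l (0.99 ± 0.14) and Ubxn7 (0.68 ± 0.10), with no overlap, and the calcineurin subunit Ppp3cb (0.78 ± 0.11). Zfp81 (0.97 ± 0.12, no overlap), Zfp808 (1.44 ± 0.20) and Zfp955b (1.40 ± 0.20) encode zinc finger proteins. Of 357 genes with a numbered Zfp symbol 132 were higher and 12 lower (91 and 8 in batch 1). Over all genes tested 14.8% were higher and 15.9% lower (10.8% and 11.2% in batch 1).

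Of 26 proliferation genes 5 were higher and 0 lower (median 0.29), a share near the 14.8% of all genes. In batch 1 alone 6 of the 26 were higher and 0 lower, a share above the 10.8% of all genes there. All 8 old libraries lay above the young median of the list level. Bub1, a mitotic checkpoint kinase, had 27.6, 34.6 and 40.7 CPM in old mice, against 10.7, 23 and 28.1 CPM in young mice (0.89 ± 0.15, edgeR adjusted p = 2.25e-05), and the spindle motor Kif11 (0.70 ± 0.15) and the replication helicase subunit Mcm7 (0.44 ± 0.10) rose. Of 16 clock genes 3 were higher and 0 lower (2 and 0 in batch 1). These were Nr1d2 (0.96 ± 0.15), Clock (0.89 ± 0.19) and Bhlhe41 (0.84 ± 0.23), the last of which did not pass in batch 1 (0.79). Of 18 TGF-beta pathway genes 3 were higher and 1 lower (3 and 0 in batch 1). The higher counts of the clock and TGF-beta lists also lay near the 14.8% of all genes. The higher TGF-beta pathway genes were the receptor Tgfbr1 (0.89 ± 0.21), the signal carrier Smad2 (0.59 ± 0.12) and the repressor Skil (1.01 ± 0.19).

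Genes of stroma and other tissues passed in both directions, and their counts stand beside 14.8% higher and 15.9% lower over all genes (10.8% and 11.2% in batch 1). Of 16 fibroblast genes 1 was higher, Lum (1.12 ± 0.34), and 2 were lower, Ly6c1 (-1.36 ± 0.35) and Pdpn (-0.85 ± 0.30). Pdpn did not pass in batch 1 (-0.67) or without young replicate 8 (-0.83). Of 16 collagen genes 2 were higher, Col8a1 (1.22 ± 0.28) and Col18a1 (1.14 ± 0.29), and 0 lower. Col18a1 did not pass in batch 1 (1.18). Of 18 matrix remodelling genes 0 were higher and 4 lower, among them Timp1 (-0.98 ± 0.21) and Mmp9 (-1.27 ± 0.37). Of 13 parvin and integrin adhesion genes 3 were higher, including Itgb1 (0.78 ± 0.16) and Lims1 (0.43 ± 0.13), and 2 lower, including Parvb (-0.96 ± 0.19). Of 16 endothelial genes 0 were higher and 4 lower. Mmrn2, an endothelial matrix protein, had 8.24, 23.8 and 89.0 CPM in old mice, against 17.7, 54.6 and 979 CPM in young mice (-2.69 ± 0.50, and -3.86 in batch 1), and Egfl7 (-0.84 ± 0.23) and Vwf (-0.95 ± 0.29) lost their calls without young replicate 8 (-0.60 and -0.67). Of 12 mesenchymal regulators 1 was higher, Twist2 (0.80 ± 0.26), and 0 lower. Twist2 lost its call without young replicates 7 and 8 (0.69). Of 15 adipocyte genes 0 passed in either direction, in the full comparison or in batch 1. Of 8 skeletal muscle genes 2 were higher, Tnnt3 (2.48 ± 0.55) and Myh1 (1.09 ± 0.31), and 1 lower, Myoz1 (-0.85 ± 0.32). Myh1 (0.83) and Myoz1 (-0.81) did not pass in batch 1, and Myoz1 lost its call in 13 of 33 alternatives. Of 13 genes of secretory mammary epithelium 2 were higher, Muc15 (1.71 ± 0.63) and Cel (1.92 ± 0.73), and 1 lower, Xdh (-0.99 ± 0.32). Both higher calls were lost in batch 1 (1.89 and 2.08) and without young replicate 8 (1.63 and 2.02). Muc15 lost its call in 11 and Cel in 16 of 33 alternatives. In batch 1 the counts (higher and lower) were 1 and 1 for fibroblast, 1 and 0 for collagen and 0 and 3 for matrix remodelling genes. They were 2 and 1 for parvin and integrin adhesion, 0 and 3 for endothelial genes and 2 and 0 for mesenchymal regulators. Of 7 muscle genes tested there 1 was higher and 0 lower, and of 11 secretory genes 0 and 1.

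Counts in the stress and metabolism lists stand beside the same shares of all genes. Of 18 senescence and p53 target genes 0 were higher and 3 lower, among them Cdkn1a, the p21 cell cycle inhibitor (20.2, 24.2 and 36.6 CPM in old mice, against 30.0, 47.4 and 70.5 CPM in young mice; -1.03 ± 0.18, edgeR adjusted p = 3.44e-05) and Cdkn2d (-0.44 ± 0.14). Cdkn2d did not pass in batch 1 (-0.47) or without young replicate 8 (-0.25). Of 18 hypoxia and glycolysis genes 0 were higher and 3 lower, Gapdh (-0.75 ± 0.18), Vegfa (-1.12 ± 0.30) and Adm (-0.93 ± 0.36). Adm lost its call in 18 of 33 alternatives, among them batch 1 (-0.74). Of 16 immediate early genes 2 were higher, including Klf6 (0.60 ± 0.10), and 3 lower, including Zfp36 (-1.02 ± 0.20) and Dusp1 (-0.79 ± 0.22). Of 14 heat shock and unfolded protein response genes 0 were higher and 2 lower, Ddit3 (-0.79 ± 0.22) and Atf4 (-0.51 ± 0.16), the second of which did not pass in batch 1 (-0.50) or without young replicate 8 (-0.36). Of 26 oxidative phosphorylation genes 1 was higher and 6 lower, and 2 were lower without young replicate 8. Of 26 ribosomal protein genes 0 were higher and 3 lower, and 0 were lower without young replicate 8 or with the length covariate. Of 13 mitochondrially encoded genes 1 was higher, mt-Atp8 (1.55 ± 0.35, and 2.24 in batch 1), and 0 lower. In batch 1 alone 3 of them were higher and 0 lower. The batch 1 counts (higher and lower) were 1 and 2 for senescence, 1 and 2 for hypoxia and 1 and 2 for immediate early genes. They were 0 and 1 for heat shock, 1 and 4 for oxidative phosphorylation and 0 and 4 for ribosomal protein genes. The batch 1 shares of all genes were 10.8% higher and 11.2% lower.

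Whether the difference between old and young mice was particular to anti-CTLA4 was tested by the interaction of age with antibody. Against the same difference under isotype 0 of 17899 genes passed edgeR's test (0% of those tested; 1257 at an unadjusted p under 0.05, smallest adjusted p = 0.188), and DESeq2 called 18, 13 higher and 5 lower. Against the difference under anti-PD-L1 0 genes passed (332 at an unadjusted p under 0.05, smallest edgeR adjusted p = 0.986), and DESeq2 called 5. These 5, named after their values were seen, were Mup18, Zfp781, Gm26527, Gm38166 and Gm44170. DESeq2 gave them log2 fold changes from -23.0 to 19.3, where edgeR gave -7.58 to 4.52 (edgeR adjusted p = 0.986 for each). Some of the 18 calls against isotype had values of this size too, such as Gm43108 (-24.8 with DESeq2 and -9.60 with edgeR). These calls depend on the method of fitting. For Cyth1 the difference of log2 fold changes was 0.48 ± 0.53 against isotype and -0.14 ± 0.49 against anti-PD-L1. For Ifng it was -0.91 ± 0.71 and -0.60 ± 0.64, and for Gzmb -0.72 ± 0.63 and -0.63 ± 0.58. For Epcam it was -0.14 ± 0.29 and 0.10 ± 0.27. Under isotype no batch held both ages, and under anti-PD-L1 none did, so these differences lean on batch effects estimated from other groups, and their standard errors are as large as many of the effects. A gene that misses the threshold here is not shown to differ by the same amount under each antibody.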

How the data were processed

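Poly(A) RNA was made into strand-marked libraries and read as pairs of 75 bases, per the labels' protocols. Salmon, DESeq2 1.16.1 and mm10 are named in the submitters' processing notes. The authors deposited estimated counts per gene, all whole numbers, and TPM values of the same libraries. The labels do not say how transcripts were summed to genes. The deposited counts equalled TPM times 1 length per gene and 1 factor per library (largest log2 deviation 0.00145 over 2644 genes). Of 47729 identifiers, 47310 matched GENCODE vM21 (GRCm38).

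Counts of all 52 libraries were fitted in edgeR 4.0.16 (R 4.3.3), with filterByExpr, TMM factors, and terms for group and sequencing batch. List levels are means of members' log2 CPM (prior count 2). Length was the effective length from counts and TPM. Over 94 pairs of libraries within a group, chi-square per degree of freedom was 19.2 or more, above sampling noise, so no pair looked like repeat reads of the same library. This cannot tell whether libraries shared a tumour or an animal. Each library was counted as 1 replicate, following its label. On simulated counts of 17683 genes for this comparison, 71 of 100 genes changed 2-fold and 94 of 100 changed 4-fold were recovered, with 6 false calls among 17483. The simulated counts held no batch differences, no length trend and no library that stood apart. They therefore check the fitting steps and do not give the error rate in these data. Alternatives included DESeq2 1.42.0, other scalings and filters, batch subsets, covariates, a replicate block and leaving out each library.

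The 46 lists hold 711 entries, of which 2 matched no gene. Members and lists were chosen with earlier results of these data known. The rule for named genes took, in each direction, the 15 passing genes with the smallest p among those averaging 1 CPM or more and having a proper symbol, then up to 3 passing genes of smallest p per list (or the 1 of smallest p where none passed), and a fixed set of immune genes. The genes Irf1, Igtp, Gbp4, Cxcl10, Tap1, B2m, S100a8, Camp, Ly6g, Cxcl2, Prg2, Kit, Arg1, Cx3cr1, Ccl3, Ifngr1, Ifngr2, Krt5, Krt8 and Krt18, list members outside the rule, were added after their values were seen. Not every gene chosen this way is named in the text.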

Additional observations from a re-analysis of the deposited data

Results flagged for a closer look

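In 17 of 237 sets of 8 values examined in old mice, the highest or lowest library lay far from the others (gap over range above Dixon's 95% value). Chance flags about 1 in 20 sets, and the sets share libraries. Old replicate 1 was the lowest old library for Cd274 (15 CPM), Ifng (0.429 CPM), Irf1 (107 CPM), Gbp4 (41.2 CPM), Fcgr4 (27.0 CPM) and Fcgr1 (37.8 CPM). It was also lowest in the mean log2 CPM of the lists of Fc receptors (6.24), neutrophils (0.962), interferon gamma (4.71), class I presentation (7.63) and the T cell chemokine axis (3.59). The same library was highest for Pla2g5 (1.07 CPM) and for the proliferation list (6.33). Without it 4966 genes passed in the comparison of old with young mice. Old replicate 8 was lowest for Cdk2ap2 (49.6 CPM). Old replicate 6 was highest for Pim1 (54.5 CPM) and lowest for the skeletal muscle list (0.740). Old replicate 5 was the only old library with Mup10 above 0, at 6.91 CPM.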

How the results depend on the processing

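Of 177 named genes that passed, 116 kept direction and call under all 33 alternatives. In batch 1 alone 3596 genes passed, 1762 higher and 1834 lower, and without young replicate 8 as well (chosen after seeing the data) 2386, 1279 and 1107; these fits hold fewer libraries. Leaving out each library in turn gave 3885 to 6278 genes, 2141 to 3075 higher and 1744 to 3203 lower, lowest without young replicate 8. Replicate numbers did not pair the libraries: 2 of 8 same-numbered pairs correlated over 0.1 (-0.448 to 0.140), and 0 libraries correlated best with their own number. Without young replicates 7 and 8 together (chosen after seeing the data) 3955 genes passed, 2091 higher and 1864 lower. With the number as a replicate block 4285 genes passed. The sign turned for Rps14 (0.036) and Fcgr1 (0.14) with the length trend covariate, for Cd28 and Ifngr1 in batch 1 without young replicate 8 (0.038 and 0.083), for Ifngr1 without libraries of a TMM factor under 0.8 (0.0023), and for Fcgr1 without young replicate 6 (-0.17 to 0.068 over the libraries left out in turn); the cause was not tested. The interaction with isotype called 10 genes without the batch term (6 higher, 4 lower) and 18 with DESeq2 (13 and 5), and that with anti-PD-L1 called 5 with DESeq2 (3 and 2). Depth limits genes near 0 CPM, such as the Mup genes.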
